A study of Mus musculus with 6 samples.

Results

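Kruppel-like factors are DNA-binding proteins that share a run of zinc fingers at their C-terminal end. The genes described here are Klf2, Klf3, Klf4, Klf5, Klf6, Klf7, Klf10, Klf11, Klf13 and Klf15. They were taken by symbol, after the Ensembl identifiers of the deposited expression table had been matched to GRCm38 gene names, and they are 10 of the 22298 genes in the table. All 10 passed the filter on low counts and are among the 13708 genes tested. Poly(A)-selected RNA was sequenced from 6 heart samples of wild-type (WT) female mice aged 18 months, 3 of them sham-operated and 3 with TAC. The letters usually stand for transverse aortic constriction, in which the aorta is narrowed so that the left ventricle pumps against a raised pressure. Sham and TAC hearts share sex, age and genotype, while neither their strain nor the time from surgery to sampling is stated in those labels. The labels number the hearts 1 to 3 in each group without saying whether each sample is a separate animal, so the p-values measure only how much these samples spread, which may be technical.

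The zinc fingers of the family bind GC-rich DNA with a CACCC core, and members differ mainly in the part of the protein that recruits other factors. KLF2 and KLF4 are induced in endothelial cells by steady blood flow, through the kinase ERK5 and MEF2 factors, and restrain the adhesion of leukocytes. KLF15 is abundant in heart muscle, is induced by glucocorticoids and the circadian clock, and supports the use of fatty acids and amino acids. KLF10, KLF11 and KLF13 repress transcription through the SIN3A corepressor, KLF3 represses through CtBP proteins, and KLF5, KLF6 and KLF7 are mostly activators.

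RefSeq start sites on GRCm38.p6 were matched for 8 of the 10 genes (Klf2, Klf3, Klf4, Klf6, Klf7, Klf11, Klf13 and Klf15). The 3 promoters below are shown because Klf2 and Klf6 had the largest positive log2 fold changes of the family and Klf15 the largest negative one. They cover chr8:72318812-72319032 for Klf2, chr13:5861239-5861481 for Klf6 and chr6:90462326-90462575 for Klf15, all on the plus strand. Each run reads 5′ to 3′ from 250 bases before the RefSeq start site and stops before the earliest annotated start. Capitals mark CACCC or its reverse complement GGGTG, the E-box CACGTG that clock factors bind, and TAAATTTA, an AT-rich core of the kind MEF2 binds.
Klf2 promoter: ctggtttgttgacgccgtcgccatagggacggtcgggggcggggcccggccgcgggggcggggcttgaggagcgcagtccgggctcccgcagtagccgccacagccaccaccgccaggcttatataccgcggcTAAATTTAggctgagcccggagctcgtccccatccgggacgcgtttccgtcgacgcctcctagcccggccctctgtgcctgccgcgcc
Klf6 promoter: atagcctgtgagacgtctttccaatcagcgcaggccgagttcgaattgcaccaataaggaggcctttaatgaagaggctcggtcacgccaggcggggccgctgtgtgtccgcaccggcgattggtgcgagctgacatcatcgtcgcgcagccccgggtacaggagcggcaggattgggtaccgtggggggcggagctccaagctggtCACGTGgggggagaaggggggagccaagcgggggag
Klf15 promoter: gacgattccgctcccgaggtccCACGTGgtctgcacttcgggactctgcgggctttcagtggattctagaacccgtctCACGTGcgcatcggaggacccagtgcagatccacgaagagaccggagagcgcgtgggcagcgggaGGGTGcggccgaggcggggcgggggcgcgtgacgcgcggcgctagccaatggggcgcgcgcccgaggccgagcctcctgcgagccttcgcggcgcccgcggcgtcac
Klf15 held 2 copies of CACGTG, 228 and 172 bases before its start site. Klf4, Klf6 and Klf11 held 1 copy each, and CACGTG is found in 6.02% of the 32851 promoter windows of the same 250 bases. TAAATTTA lay 117 bases before the start of Klf2 and is in 0.502% of all windows, and this motif was added after the Klf2 promoter had been read. The motif CACCC was in the windows of Klf2, Klf3, Klf7, Klf13 and Klf15, against 52.0% of all windows, and Klf3 held the most with 5 copies. The match of Klf2 lies 19 bases before the start site, past the end of the run printed above. GGGCGG, the GC box, occurred in all 8 windows, with 1 to 6 copies, and in 32.7% of all windows. These windows were rich in G and C, at 59.2% to 78.4%, against a median of 52.4% over all windows. TAAAAATA, TGACGTCA and TGTTCT, searched on both strands like the others, were in none of the 8 windows and in 2.45%, 1.55% and 16.1% of all windows. CACCC and GGGCGG can lie side by side in the same GC-rich stretch. A match says only that these letters are present.

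None of the 10 genes passed the test over all genes (edgeR quasi-likelihood test, Benjamini-Hochberg adjusted p under 0.05). Klf6 missed it by the smallest margin, with an adjusted p of 0.05003, followed by Klf2 at 0.0619. Klf2, Klf6, Klf4, Klf7 and Klf3 had positive log2 fold changes, from 0.75 down to 0.14, and Klf13, Klf10, Klf5, Klf11 and Klf15 had negative ones, from -0.35 to -0.65. The counts of 0 higher and 0 lower stand beside 1.12% of all tested genes called higher and 0.54% called lower. At an unadjusted p under 0.05 there were 4 members, Klf2 and Klf6 with positive and Klf11 and Klf13 with negative log2 fold changes, beside 25.6% of all tested genes. The median log2 fold change was -0.10 over the family and 0.03 over all genes, and the median size without regard to sign was 0.45 over the family and 0.26 over all genes. DESeq2's Wald test called Klf6 (adjusted p = 0.00107) and Klf2 (adjusted p = 0.00339) higher and no member lower, beside 7.28% of all genes called higher and 4.08% called lower by it.

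The library TAC replicate 1 stood apart from the other TAC hearts. On the first principal component of log2 CPM (counts relative to TMM-scaled library totals) it lay at 0.65, against -37.3 to -31.4 for the sham libraries and 48.9 and 53.5 for TAC replicates 2 and 3. Total estimated counts were 19747265 to 27549838 per library. Without TAC replicate 1, edgeR called 4 members: Klf6 and Klf2 were higher and Klf15 and Klf13 lower. In that fit 13.2% of all genes were called higher and 10% lower, so 2 of 10 members in each direction is to be read against those shares.

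**Figure D1:**
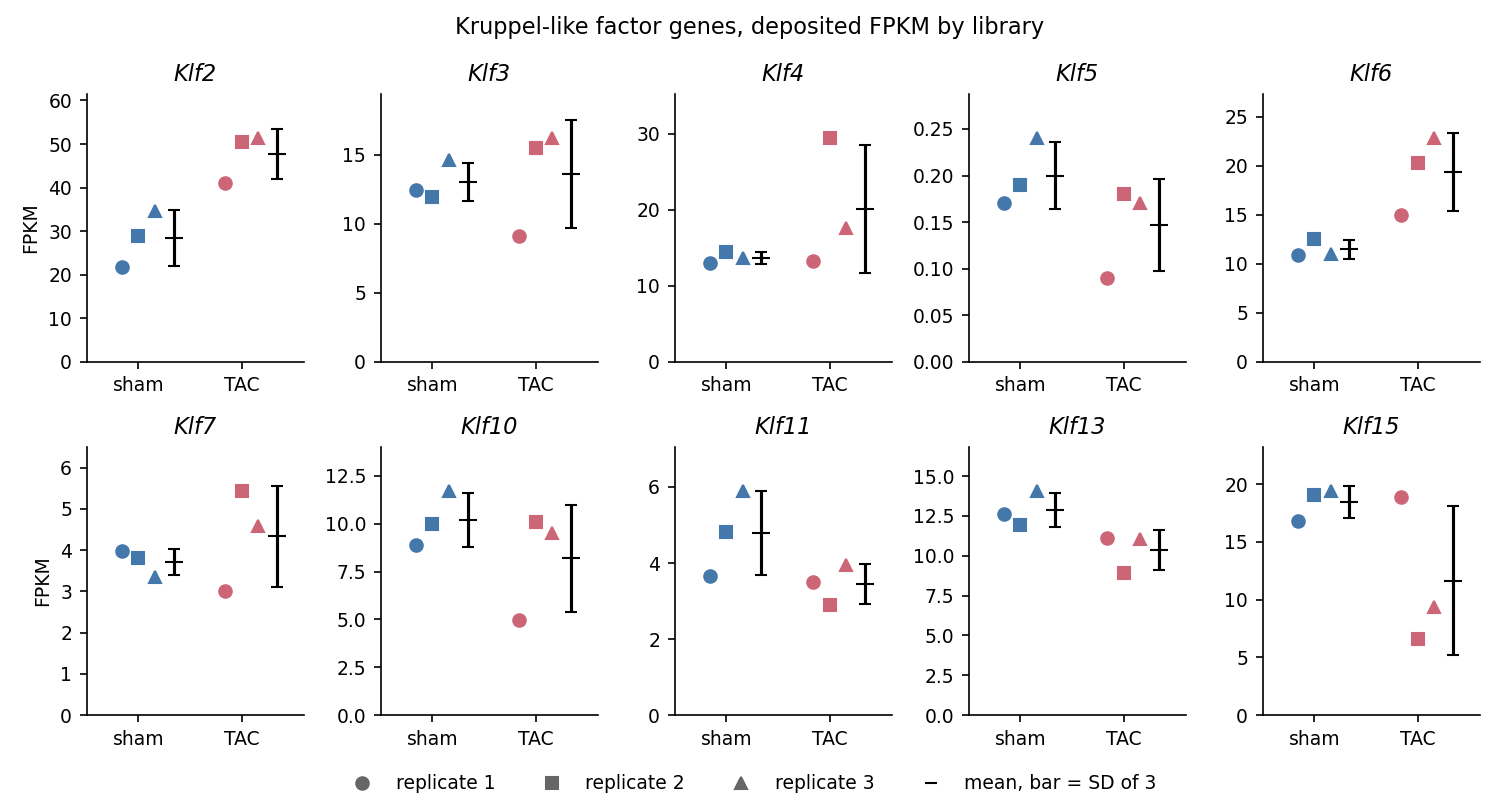
Deposited FPKM (fragments scaled by transcript length and library size) of each member on the y axis, for 3 sham (blue) and 3 TAC (red) libraries, with marker shape for the replicate and the mean and SD beside. For Klf2 and Klf6 every TAC value lies above every sham value, and for Klf15 only TAC replicates 2 and 3 lie below the sham range.

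In sham hearts Klf2 was the most abundant member per length, at 28.4 ± 6.40 FPKM (SD, n = 3 for this and each following group mean). Klf15 came next at 18.4 ± 1.39 FPKM, and the ranges of the pair did not overlap. Klf4 (13.7 ± 0.755), Klf3 (13.02 ± 1.40), Klf13 (12.9 ± 1.06), Klf6 (11.5 ± 0.940) and Klf10 (10.2 ± 1.41 FPKM) followed, and each overlapped the next in this order. Klf11 at 4.79 ± 1.11 FPKM and Klf7 at 3.71 ± 0.325 FPKM lay below these, and their ranges overlapped. Klf5 was near the floor at 0.200 ± 0.0361 FPKM. Klf2 made up 24.3% of the summed FPKM of the 10 genes in sham and 34.3% in TAC, while Klf15 made up 15.8% and 8.39%. The summed FPKM was 104.3, 117.8 and 128.3 in sham replicates 1, 2 and 3 and 120.0, 149.8 and 146.7 in TAC replicates 1, 2 and 3. In the order within each library, Klf2 ranked at the top in all 6 libraries. Klf15 ranked 2 in the sham libraries and in TAC replicate 1, and 7 in TAC replicates 2 and 3. The ratio of Klf2 to Klf15 FPKM, chosen after the values had been seen, was 1.29, 1.52 and 1.78 in the sham libraries and 2.17, 7.62 and 5.46 in TAC replicates 1, 2 and 3.

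Klf2, the flow-induced factor of endothelial cells that also keeps T cells quiescent, had the largest positive log2 fold change. Its gene (ENSMUSG00000055148, chromosome 8, 72319033 to 72321656, plus strand) had 794, 1474 and 1345 counts in sham replicates 1, 2 and 3 and 1954, 2179 and 2102 in TAC replicates 1, 2 and 3. The FPKM values were 21.77, 28.97 and 34.53 in sham and 41.01, 50.50 and 51.33 in TAC. All TAC values were above all sham values, with sham replicate 3 the nearest to the TAC range. The mean was 28.4 ± 6.40 FPKM in sham and 47.6 ± 5.73 FPKM in TAC. The log2 fold change was 0.75 (SE 0.16, 1.68-fold, with an adjusted p of 0.0619 in edgeR). Leaving out TAC replicate 1 gave 0.80 (SE 0.18 and adjusted p = 0.0229). With any other library left out it was 0.57 to 0.88 and did not pass, where 4 to 82 of all genes were called higher.

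Klf6, a factor induced by injury in many tissues and expressed in macrophages and vessel cells, came closest to the threshold. At ENSMUSG00000000078 (chromosome 13, 5861482 to 5870394, plus strand) the counts were 908, 1462 and 979 in sham and 1637, 1970 and 2067 in TAC replicates 1, 2 and 3. The FPKM values were 10.88, 12.56 and 10.99 in sham and 15.02, 20.28 and 22.82 in TAC. The TAC values did not overlap the sham values, and TAC replicate 1 was the nearest to sham. The log2 fold change was 0.72 (SE 0.14, 1.65-fold, with an adjusted p of 0.05003 in edgeR). With a minimum count of 100 in place of 10 it was called higher (0.74, adjusted p = 0.0441), where 1.31% of all genes were. Leaving out TAC replicate 1 gave 0.82 (SE 0.11 and adjusted p = 0.00627). Klf2 and Klf6 were the 2 members with all TAC values in CPM above all sham values, as were 18.4% of all tested genes.

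Klf4, which acts with Klf2 in endothelial cells and is also known from smooth muscle and stem cells, was high in 1 TAC heart. Its FPKM was 12.94, 14.45 and 13.65 in sham and 13.21, 29.39 and 17.66 in TAC replicates 1, 2 and 3 (774 to 1196 counts in sham and 1032 to 2062 in TAC). TAC replicate 1 lay inside the sham range, TAC replicate 3 a little above it, and TAC replicate 2 was the highest of all 6 libraries. Klf4 (ENSMUSG00000003032, chromosome 4, 55527143 to 55532466, minus strand) had a log2 fold change of 0.56 (edgeR, SE 0.26 and adjusted p = 0.215). It was 0.14 (adjusted p = 0.555) without TAC replicate 2 and 0.76 (adjusted p = 0.0565) without TAC replicate 1.

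Klf15, the metabolic factor of heart muscle, had the widest range between TAC hearts on the log2(CPM + 0.5) scale. The gene (ENSMUSG00000030087, chromosome 6, 90462576 to 90475238, plus strand) had 778, 1225 and 948 counts in sham and 1123, 357 and 492 in TAC replicates 1, 2 and 3. Its FPKM was 16.83, 19.09 and 19.36 in sham and 18.90, 6.63 and 9.40 in TAC. TAC replicate 1 lay within the sham range, and TAC replicates 2 and 3 were far below it. The group means were 18.4 ± 1.39 FPKM in sham and 11.6 ± 6.43 FPKM in TAC. The log2 fold change was -0.65 (SE 0.35, 1.57-fold, with an adjusted p of 0.277 in edgeR). Without TAC replicate 1 it was -1.25 (SE 0.15 and adjusted p = 0.00494). Leaving out TAC replicate 2 instead gave -0.39 (adjusted p = 0.485).

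**Figure D2:**
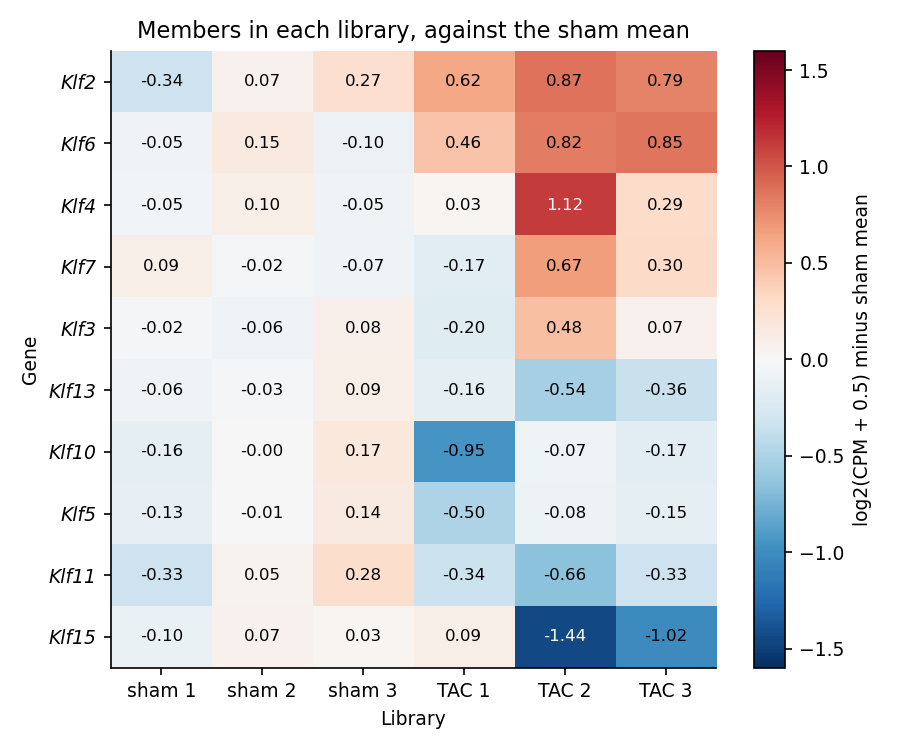
Difference of each member (rows) from the sham mean on the log2(CPM + 0.5) scale, for each library (columns), with genes in order of their log2 fold change. Klf15 stands at 0.09 in TAC replicate 1 and at -1.44 and -1.02 in TAC replicates 2 and 3, and Klf10 is lowest in TAC replicate 1 at -0.95.

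Among the SIN3A-binding repressors, Klf13 had all TAC values below all sham values. KLF13 works with the cardiac factor GATA4 and controls chemokine expression in T cells. Its FPKM was 12.64, 11.94 and 14.03 in sham and 11.12, 8.94 and 11.08 in TAC replicates 1, 2 and 3 (1365, 1939 and 1687 against 1603, 1157 and 1336 counts). The log2 fold change of Klf13 (ENSMUSG00000052040, chromosome 7, 63886351 to 63938915, minus strand) was -0.35 (edgeR, SE 0.13 and adjusted p = 0.139). It was -0.47 (SE 0.11 and adjusted p = 0.0245) without TAC replicate 1. As 1 of 10 members it stands beside 13.1% of all tested genes with every TAC CPM value below every sham value.

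Klf10 and Klf11 are also known as TGF-beta-inducible early genes. Klf10 (ENSMUSG00000037465, chromosome 15, 38291463 to 38300706, minus strand) had an FPKM of 8.90, 9.99 and 11.69 in sham and 4.99, 10.08 and 9.52 in TAC replicates 1, 2 and 3. Only TAC replicate 1, with 380 counts, lay below the sham range, the reverse of the pattern of Klf15. Its log2 fold change was -0.36 (edgeR, SE 0.23 and adjusted p = 0.351), and -0.14 (adjusted p = 0.476) without TAC replicate 1. Klf11 (ENSMUSG00000020653, chromosome 12, 24651274 to 24662789, plus strand) had 3.67, 4.81 and 5.88 FPKM in sham and 3.51, 2.89 and 3.95 FPKM in TAC. The groups overlapped because sham replicate 1 was as low as the TAC hearts. For Klf11 the log2 fold change was -0.47 (SE 0.19 and adjusted p = 0.163).

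The other members did not pass either. Klf3, a repressor that works with CtBP proteins (ENSMUSG00000029178, chromosome 5, 64803388 to 64832901, plus strand), had 12.48, 11.98 and 14.61 FPKM in sham and 9.15, 15.51 and 16.20 FPKM in TAC, with TAC replicate 1 the lowest of all 6. Its log2 fold change was 0.14 (edgeR, SE 0.17 and adjusted p = 0.623) and turned to -0.09 without TAC replicate 2. Klf7, best known from neurons and fat cells (ENSMUSG00000025959, chromosome 1, 64029447 to 64122282, minus strand), had 3.98, 3.80 and 3.35 FPKM in sham and 3.00, 5.42 and 4.58 FPKM in TAC. Klf7 had a log2 fold change of 0.31 (SE 0.20 and adjusted p = 0.360), and 0.49 (adjusted p = 0.0504) without TAC replicate 1. Exons of Klf7 overlap the antisense genes Gm26649 and Gm13748, and exons of Klf3 overlap Gm20033 on the other strand. Since the labels do not say that strand was kept, reads of these genes may not have been told apart. Klf5, a factor of smooth muscle and epithelium (ENSMUSG00000005148, chromosome 14, 99298691 to 99315036, plus strand), had 11, 18 and 17 counts in sham and 8, 14 and 13 in TAC. At that depth a log2 fold change of -0.44 came with an SE of 0.41 (adjusted p = 0.526), so no difference was detectable.

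Counts and FPKM did not scale alike for every member. The length implied by count, library total and FPKM was 1847 bases in all 6 libraries for Klf2, which has 1 annotated transcript. For Klf3, with 9 annotated transcripts, it ranged from 3719 bases in TAC replicate 3 to 4922 bases in TAC replicate 1, a 1.32-fold range, and for Klf7 from 6753 to 7671 bases. Across libraries, the FPKM of Klf3 and Klf7 therefore also carries a change of the length used. For the other members, apart from Klf13 at 1.08-fold, the range was at most 1.06-fold.

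**Figure D3:**
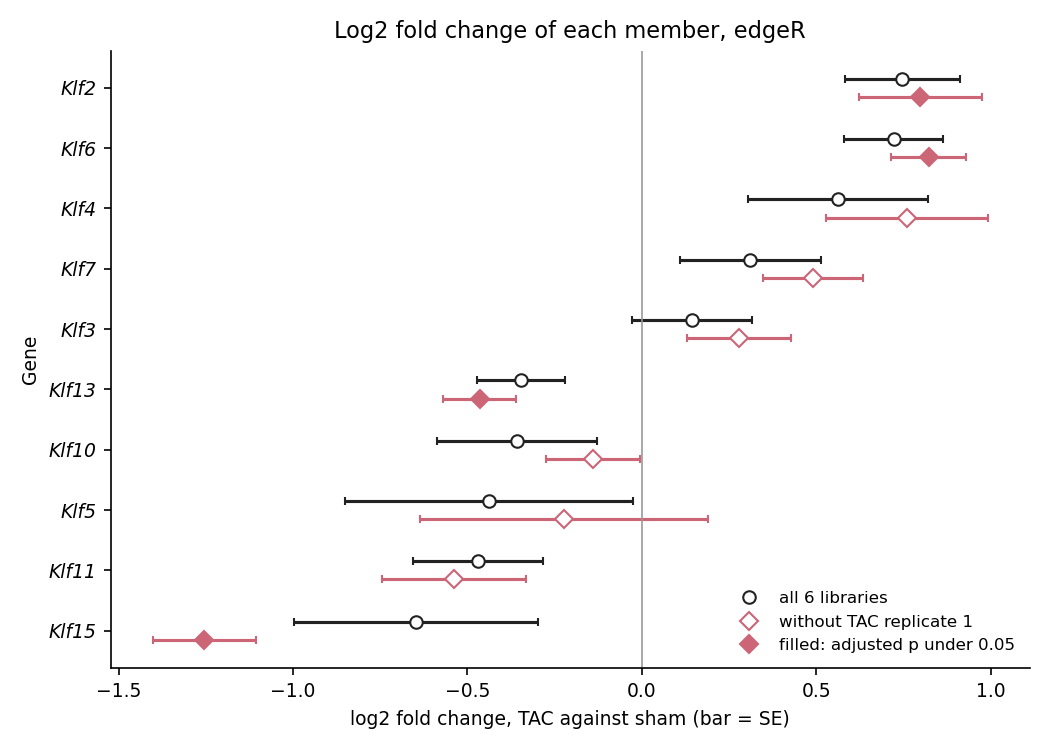
Log2 fold change of TAC against sham for each member, with its SE, in the edgeR fit of all 6 libraries (black circles) and without TAC replicate 1 (red diamonds), filled where the adjusted p is under 0.05. No circle is filled, and the filled diamonds are Klf2, Klf6, Klf13 and Klf15, where Klf15 moves from -0.65 to -1.25.

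The rest of the Kruppel-like family and the related SP factors share the zinc fingers. With all 6 libraries, neither edgeR nor DESeq2 called any of them. At an unadjusted p under 0.05 there were 0 Klf and 2 SP genes (edgeR), beside 25.6% of all genes. In the edgeR fit without TAC replicate 1 only Sp3 was called, as higher, where 13.2% of all genes were. Of 7 other Klf genes, Klf8, Klf9, Klf12 and Klf16 were tested, Klf1 and Klf14 had too few counts, and Klf17 had 0 counts in all libraries. Klf9, a glucocorticoid-induced partner of Klf15 in many tissues, was the most abundant of them. It had 22.59, 23.68 and 19.47 FPKM in sham and 19.29, 17.76 and 14.18 FPKM in TAC (log2 fold change -0.35, edgeR, SE 0.17 and adjusted p = 0.238). Klf16 had a log2 fold change of 0.14 (SE 0.22 and adjusted p = 0.699). Of 9 SP genes 4 were tested. Sp3, which binds the same GC boxes as SP1, was at 0.60 (SE 0.20 and adjusted p = 0.113) and Sp1 at 0.01 (SE 0.11 and adjusted p = 0.965).

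Transcripts of the proteins that Kruppel-like factors recruit or are degraded by were measured too. None of 12 genes of corepressors, coactivators and ubiquitin ligases passed (8 positive and 4 negative, median log2 fold change 0.07), 3 had an unadjusted p under 0.05, beside 25.6% of all genes, and DESeq2 called 0. The most abundant, the corepressor genes Ctbp1 and Sin3b, were at -0.11 (SE 0.13) and 0.02 (SE 0.11). The largest log2 fold changes were those of the corepressor gene Ctbp2 at 0.57 (SE 0.21 and adjusted p = 0.149), called higher without TAC replicate 1, and the ubiquitin ligase gene Wwp1 at 0.55 (SE 0.19 and adjusted p = 0.118), whose TAC values all lay above sham. Sin3b turned slightly negative under other scalings, as did Sp1. In the ERK5 and MEF2 pathway upstream of Klf2 and Klf4, 0 of 14 passed, with 7 positive and 7 negative. The list mixes kinase, MEF2 and histone deacetylase genes with others, so these signs give no direction for the pathway. Of the 14, 7 had an unadjusted p under 0.05, beside 25.6% of all genes. DESeq2 called Mef2d and Hdac5 lower, where it called 4.08% of all genes lower. The most abundant genes of the pathway were Mef2d and Mef2a, which encode MEF2 factors. Their log2 fold changes were -0.46 (edgeR, SE 0.13 and adjusted p = 0.0880) and 0.20 (SE 0.15 and adjusted p = 0.423). Without TAC replicate 1 edgeR called Map3k2 and Pdcd10 higher and Map2k5 and Hdac5 lower, beside 13.2% of all genes higher and 10% lower.

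Endothelial genes reported as targets of KLF2 or KLF4 included 3 that passed, 2 higher and 1 lower of 17 tested. The median log2 fold change of the 17 was 0.33, against 0.03 over all genes. The list mixes genes induced by KLF2, such as Nos3 and Thbd, with genes it restrains, such as Vcam1. The sign of that median therefore gives no direction for the targets. Over all genes 1.12% were called higher and 0.54% lower. At an unadjusted p under 0.05 there were 10 of 17, beside 25.6% of all genes. DESeq2 called 5 higher and 2 lower, adding the adhesion genes Icam1, Sele and Selp and the peptide gene Apln, where it called 7.28% of all genes higher and 4.08% lower. Leaving TAC replicate 1 out, edgeR called 7 higher and 2 lower, beside 13.2% and 10% of all genes. Ptgds, which encodes a prostaglandin D synthase and is raised by flow, rose from 166.32, 113.53 and 114.38 FPKM in sham to 672.98, 806.23 and 546.78 FPKM in TAC (log2 fold change 2.35, edgeR, SE 0.23 and adjusted p = 0.00620). Vcam1, the leukocyte adhesion molecule that KLF2 is known to restrain, rose by 1.00 (SE 0.11 and adjusted p = 0.00837). Aqp1, the endothelial water channel, fell by 1.02 (SE 0.17 and adjusted p = 0.0363). Nos3 and Thbd, the textbook genes induced by KLF2 (nitric oxide synthase and thrombomodulin) and named outside the rule for listed genes, did not pass, at log2 fold changes of -0.20 (SE 0.12 and adjusted p = 0.319) and 0.33 (SE 0.16 and adjusted p = 0.240). Without TAC replicate 1 edgeR called Thbd higher (adjusted p = 0.0268) but not Nos3. Ptgds and Vcam1 passed in the DESeq2 test and without TAC replicate 1. Both missed the threshold without sham replicate 2 or 3 (adjusted p = 0.0686 and 0.0828 for Ptgds, 0.0778 and 0.0947 for Vcam1), as did Vcam1 without sham replicate 1 (0.0735). Aqp1 missed it without any 1 sham library (0.131 to 0.200) and without TAC replicate 2 (0.0922) or 3 (0.0506). Few genes passed in those fits. Without sham replicate 1, 2 or 3, edgeR called 6, 7 and 4 of all genes higher and 10, 9 and 8 lower.

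Genes reported as targets of KLF15 in heart and muscle mostly had negative log2 fold changes, and 0 of 16 passed. There were 13 negative and 3 positive values, with a median of -0.38 against 0.03 over all genes. At an unadjusted p under 0.05 there were 5 (edgeR), beside 25.6% of all genes. DESeq2 called Ccn2 higher and Gpt2 and Cpt2 lower, beside 7.28% of all genes higher and 4.08% lower. The median by library, on the log2(CPM + 0.5) scale against the sham mean, was 0.05 in TAC replicate 1, -0.45 in TAC replicate 2 and -0.75 in TAC replicate 3. Klf15 itself stood at 0.09, -1.44 and -1.02. The genes of the list went both ways in TAC replicate 1. There Kcnip2 (-0.65), Gpt2 (-0.26) and Cpt2 (-0.24) lay below every sham library. Per2 (0.81), Ccn2 (0.62), Lpl (0.36), Acadm (0.23), Fabp3 (0.22), Pln (0.17) and Slc2a4 (0.0451) lay above every sham library. The remaining listed genes lay within the sham range. Cardiomyocyte markers, which share Pln with the list, had library medians in the same order as the list, at 0.10, -0.15 and -0.56 in TAC replicates 1, 2 and 3. Klf15 was instead lowest in TAC replicate 2. Of the TAC hearts, TAC replicate 1 lay nearest to sham over all genes, so that nearness is not particular to Klf15 or its list. The part of cardiomyocyte makeup in the values of Klf15 and its list was not tested. By mean FPKM the list was led by Fabp3, which encodes a fatty acid carrier of muscle (-0.19, SE 0.22), and Pln, which encodes the calcium pump regulator phospholamban (-0.22, SE 0.24). Kcnip2, a potassium channel subunit known to need KLF15 and named here after its values were seen, was at 53.71, 73.87 and 86.63 FPKM in sham and 43.34, 15.49 and 6.34 FPKM in TAC (log2 fold change -1.71, edgeR, SE 0.62 and adjusted p = 0.139). The groups of Kcnip2 did not overlap. Without TAC replicate 1, 10 of the 16 were called lower and 1, the matrix gene Ccn2 that KLF15 is known to repress, higher, beside the 10% and 13.2% of all genes given above.

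**Figure D4:**
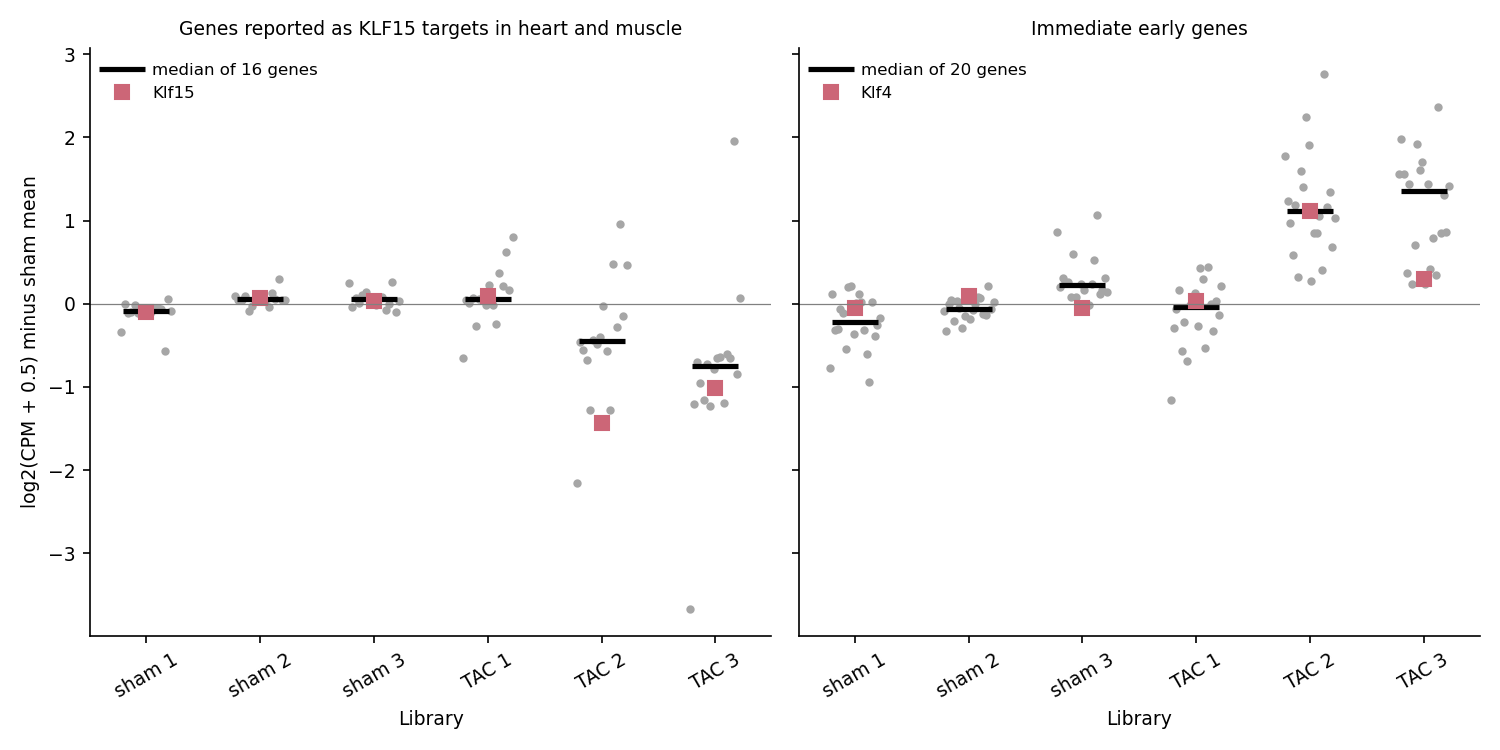
Difference from the sham mean on the log2(CPM + 0.5) scale (y axis) in each library (x axis), for genes reported as KLF15 targets with Klf15 (left) and for immediate early genes with Klf4 (right). Grey points are single genes, black bars the median of each list, and red squares the Kruppel-like factor. Both medians are near 0 in TAC replicate 1, and they are -0.45 and -0.75 (left) and 1.11 and 1.36 (right) in TAC replicates 2 and 3.

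Glucocorticoid receptor and response genes, listed because Klf15 and Klf9 are induced by glucocorticoids, had 3 of 14 higher and 0 lower (median 0.37), beside 1.12% and 0.54% of all genes. At an unadjusted p under 0.05 there were 7, beside 25.6% of all genes. DESeq2 called 5 higher and 0 lower, beside 7.28% and 4.08% of all genes. With TAC replicate 1 left out, edgeR called 6 higher and 1, Nr3c2, lower, beside 13.2% and 10% of all genes. Sgk1, a kinase induced by glucocorticoids and aldosterone, rose by 0.89 (edgeR, SE 0.12 and adjusted p = 0.0227), from 34.85 to 37.10 FPKM in sham to 58.19 to 72.48 FPKM in TAC. Cebpd, an inflammation-responsive transcription factor, rose by 1.40 (SE 0.23 and adjusted p = 0.0336). Hsd11b1, the enzyme that regenerates active glucocorticoid, rose by 0.77 (SE 0.15 and adjusted p = 0.0486). Apart from leaving out libraries, that call of Hsd11b1 held in 4 of 11 alternatives and was lost in 7, with adjusted p from 0.00255 to 0.0943. With any 1 sham library left out these 3 did not pass (adjusted p = 0.103 to 0.249), nor without TAC replicate 2 (0.0756 for Sgk1, 0.0760 for Cebpd and 0.134 for Hsd11b1), nor Cebpd without TAC replicate 3 (0.0585). In the fits without a sham library only 4 to 7 of all genes were called higher. Fkbp5, a strong glucocorticoid-induced gene, was at 4.68, 6.92 and 9.56 FPKM in sham and 10.11, 16.99 and 21.25 FPKM in TAC (log2 fold change 1.17, SE 0.29 and adjusted p = 0.0694). It was named after its values were seen. Over the list 11 genes were positive and 3 negative. Errfi1 was at 1.01 (edgeR, SE 0.20 and adjusted p = 0.0539) and Mt2 at 2.21 (SE 0.77 and adjusted p = 0.126). Both had all TAC values above sham and were named after their values were seen. Mt2 was at 83.82, 98.98 and 800.53 FPKM in TAC replicates 1, 2 and 3. Others of the list did not follow these genes. Pdk4, a kinase that limits glucose oxidation, was at -1.71 (SE 0.62 and adjusted p = 0.136), the mineralocorticoid receptor gene Nr3c2 at -0.28, the clock gene Per1 at -0.0019, and Zbtb16 and Dusp1 at 0.08 and 0.06. For Pdk4, sham replicate 1 (63.50 FPKM) lay below TAC replicates 1 and 3 (104.94 and 103.88 FPKM).

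Lists tied to Klf10, Klf11, Klf5 and Klf6 held no gene called by edgeR, with 5 of 12 at an unadjusted p under 0.05 in each, beside 25.6% of all genes. DESeq2 called Tgfb2, Skil and Igf1 higher and Txnip lower, beside 7.28% of all genes higher and 4.08% lower. Of 12 TGF-beta and SMAD genes 10 were positive (median 0.20). The receptor gene Tgfbr2 was at 0.26 (edgeR, SE 0.12 and adjusted p = 0.223). Of 12 genes reported as targets of KLF5 or KLF6, 8 were positive (median 0.25). Txnip, an inhibitor of thioredoxin, was at -0.72 (SE 0.26 and adjusted p = 0.140) and Eng, a TGF-beta coreceptor of endothelium, at 0.28 (SE 0.13 and adjusted p = 0.223). With TAC replicate 1 left out, edgeR called 4 of the TGF-beta and SMAD genes higher and 1 lower. In that fit 3 of the KLF5 or KLF6 targets were higher and 1 lower, beside 13.2% and 10% of all genes.

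Immediate early genes, which rise within minutes of stress and with which Klf2, Klf4, Klf6 and Klf10 are often induced, were positive in 20 of 20 cases, although 0 passed. The median log2 fold change was 0.94. By library the median was -0.04 in TAC replicate 1, 1.11 in TAC replicate 2 and 1.36 in TAC replicate 3, and -0.21, -0.06 and 0.22 in sham replicates 1, 2 and 3. Klf4 stood at 0.03, 1.12 and 0.29 and Klf6 at 0.46, 0.82 and 0.85 in the TAC hearts. Klf2 stood at 0.62, 0.87 and 0.79, already raised in TAC replicate 1, and Klf10 was negative in each, at -0.95, -0.07 and -0.17. The most abundant of the list, Jund and Ier3, had log2 fold changes of 0.13 (edgeR, SE 0.16 and adjusted p = 0.618) and 0.98 (SE 0.24 and adjusted p = 0.0678). DESeq2 called 6 of the 20 higher, beside 7.28% of all genes, and 10 had an unadjusted p under 0.05 in edgeR, beside 25.6%. Without TAC replicate 1 edgeR called 15 higher, beside 13.2% of all genes.

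Markers of the cell types a heart sample can hold differed between libraries too. Their calls stand beside 1.12% of all genes called higher and 0.54% called lower by edgeR. In bulk tissue, fewer cells of a type and less RNA per cell cannot be told apart. Of 12 endothelial markers 1 was lower, the receptor gene Tie1 (log2 fold change -0.63, edgeR, SE 0.11 and adjusted p = 0.0414), and 10 were negative. Their summed FPKM was 592.0 to 620.0 in sham and 507.7 to 583.2 in TAC. The markers went both ways, with Emcn at 0.38 (adjusted p = 0.0835) and Flt1 at 0.25 (adjusted p = 0.292). Macrophage and monocyte markers had 4 of 12 higher, Ptprc, Cd68, Mrc1 and Ccr2, with a sum of 445.9 to 537.6 FPKM in sham and 619.0, 941.8 and 863.8 FPKM in TAC replicates 1, 2 and 3. Neutrophil markers had 4 of 10 tested higher, Lcn2, S100a9, S100a8 and Mmp8, with a sum of 7.13 to 16.7 FPKM in sham and 59.8, 290.6 and 310.5 FPKM in TAC. T cell and natural killer cell markers summed to 3.11 to 3.85 FPKM in sham and 4.64, 8.25 and 8.44 FPKM in TAC, with 0 of 6 tested called.

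Cardiomyocyte markers, the defining genes of the labelled tissue, were abundant in all libraries. Their 10 genes, led by Myl2 and Actc1, summed to 33420 to 34830 FPKM in sham and 35710, 31680 and 26620 FPKM in TAC replicates 1, 2 and 3, and 0 of 10 passed. None of the 10 fibroblast, 10 smooth muscle and pericyte or 8 adipocyte markers passed. Gsn and Dcn led the fibroblast markers, whose sum was 1896 to 2170 FPKM in sham and 1112 to 1478 FPKM in TAC, and Acta2 and Rgs5 the smooth muscle and pericyte markers, at 436.9 to 533.9 and 372.4 to 392.9 FPKM. These sums lean on single genes. Gsn itself was at 958.11 to 1105.66 FPKM in sham and 290.54 to 617.11 FPKM in TAC. Acta2 was at 183.53 to 243.27 and 127.27 to 159.29 FPKM. The groups of Dcn and Rgs5 overlapped. In CPM, 2 of 10 fibroblast and 5 of 10 smooth muscle and pericyte markers had every TAC value below sham, beside 13.1% of all genes. Red cell and platelet markers had 3 of 9 tested higher (Slc4a1, Itga2b and Alas2), at 1502 to 2577 FPKM in sham and 3028 to 5258 FPKM in TAC. Adipocyte markers, led by Fabp4 and Cfd, summed to 657.6 to 1241 FPKM in sham and 586.0 to 985.9 FPKM in TAC. Fabp4 made up most of each sum, at 486.62 to 710.27 FPKM in sham and 567.13 to 700.51 FPKM in TAC. All the other adipocyte markers had their lowest value in TAC replicate 3. Adipoq was at 8.77 to 49.61 FPKM in sham and 25.17, 16.2 and 1.59 FPKM in TAC replicates 1, 2 and 3. Adipocyte content therefore cannot be taken as similar across libraries from these sums. Without TAC replicate 1 edgeR called 4 of 10 cardiomyocyte markers lower (Tnni3, Myh6, Ryr2 and Atp2a2), 1 of 12 endothelial markers higher and 3 lower, 1 fibroblast and 3 smooth muscle and pericyte markers lower, and 0 adipocyte markers. In that fit 11 of 12 macrophage and monocyte, 10 of 10 neutrophil, 2 of 7 T cell and natural killer cell and 6 of 9 red cell and platelet markers were called higher, beside 13.2% of all genes higher and 10% lower. DESeq2 called 2 cardiomyocyte markers lower (Myh6 and Ryr2), 1 endothelial marker higher and 2 lower, and 1 fibroblast and 3 smooth muscle and pericyte markers lower. It called 10 macrophage and monocyte, 9 neutrophil and 10 red cell and platelet markers higher, and 0 T cell and natural killer cell or adipocyte markers. Over all genes DESeq2 called 7.28% higher and 4.08% lower. No marker on these lists was at 0 in all libraries. The part of cell makeup in the values of Klf2, Klf4, Klf6 and Klf15 was not tested.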

How the data were processed

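Expression was measured by RNA-seq in 6 heart samples, 3 sham and 3 TAC, grouped by the sample titles. Per the labels' protocols, libraries were made with a NEBNext Ultra kit after oligo(dT) enrichment and run on an Illumina NovaSeq. The deposited table gives an estimated count and an FPKM value per gene and library, per the file headers. GRCm38 and the tools HISAT2, StringTie 1.3.1, Bowtie2 2.2.8 and DESeq2 are named per the submitters' processing notes, without saying which tool made which column. Symbols came from GENCODE M21 (22255 of 22298 identifiers matched).

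Estimated counts were rounded and tested over all genes in R 4.3.3 by the two-sided quasi-likelihood test of edgeR 4.0.16 (TMM scaling, genes kept by filterByExpr at a minimum count of 10, Benjamini-Hochberg adjustment over 13708 genes, threshold 0.05). The SE is the log2 fold change divided by the square root of F, an approximation. The procedure was tested on simulated data. The counts of the 10 members were whole numbers in every library. With 3 samples a group, common dispersion was 0.0473, a coefficient of variation of 21.7%. Levels compared between genes are FPKM, which the authors scaled by length and depth. Per-library differences are on log2(CPM + 0.5). FPKM was tested with limma 3.58.1, and DESeq2 1.42.0 was an alternative.

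The members, gene lists, marker lists and motifs were chosen with earlier results of these data known. Named from each list were at most 4 called genes, by lowest adjusted p, or the 2 of highest mean FPKM where no gene was called, beside genes said to be chosen later. A gene that this rule selects is not reported here. Promoters were the 250 bases before RefSeq start sites. Protein sequences were not used here.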

Additional observations from a re-analysis of the deposited data

How the results depend on the processing

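Members and all genes were recomputed under 17 alternatives, all planned. The number of members called higher changed from 0 to 2 with DESeq2's Wald test and to 1 with a minimum count of 100, and ranged from 0 to 2 when 1 library was left out. The number called lower ranged from 0 to 2 there, and only the fit without TAC replicate 1 gave calls. All genes called higher numbered 1063 with DESeq2's Wald test, 96 with limma-voom, 59 and 64 on log2 of FPKM plus 1 and plus 0.1, 17 on log2 of FPKM plus 1 with no filter, and 48 with the replicate block, against 153. Those called lower numbered 595, 13 (no filter) and 26 (replicate block), against 74. With 1 library left out they ranged from 4 to 1837 higher and 8 to 1392 lower.

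The replicate numbers showed no pairing of the samples. Deviations of same-numbered samples correlated at 0.01, -0.11 and -0.02, and those of differently numbered samples at -0.06 to 0.11. With 3 samples a group this cannot settle whether same-numbered samples were linked. With the replicate block no member passed (Klf2 at 0.76, adjusted p = 0.0834, and Klf6 at 0.72, adjusted p = 0.0922), and Sgk1, Cebpd, Hsd11b1 and Aqp1 missed the threshold.

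No member changed sign except Klf3, which lay between -0.0904 and 0.28 with 1 library left out. Klf5 was not tested with a minimum count of 100 or in the filtered FPKM fits. Among named genes, Sp1 was at -0.0135 with DESeq2 size factors, -0.0172 with upper-quartile factors, -0.0137 without mitochondrially encoded genes, -0.0153 with DESeq2 and -0.0121 without a filter. Sin3b was at -0.0005, -0.0037, -0.0010, -0.0029 in the same order and at -0.0002, -0.0003 and -0.0002 in the FPKM fits. With 1 library left out the ranges were -0.0863 to 0.0468 for Sp1, -0.0394 to 0.0432 for Sin3b, -0.0055 to 0.2656 for Jund, -0.1159 to 0.2334 for Klf16 and -0.4624 to 0.0046 for Pln. Depth limits Klf5, with at most 18 counts.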
